A study of Macaca mulatta with 136 samples.

Results

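Gene expression in the neural retina of the fovea was compared with that of the perimacula, the zone just around the macula, in 4 eyes of 2 adult Rhesus macaques. Each location gave 1 library per eye, so that 8 of the 32 libraries of the series entered this comparison, and they were chosen by their labelled tissue and location alone. The animals are named RM03 and RM04, and their right and left eyes OD and OS; values of single libraries are given in the order RM03 OD, RM03 OS, RM04 OD and RM04 OS throughout. Tissue was taken with 2 mm punches, and the labels give no treatment or genetic change for either animal. RNA was selected by its poly-A tail and sequenced on 5 lanes of the same 2 flow cells for every one of the 8 libraries. The 4 peripheral retina libraries of the same eyes were part of the statistical model, but they were sequenced on another flow cell, so that the periphery and its flow cell cannot be told apart. Fellow eyes share an animal, and 2 animals limit how far these differences can speak for the species.

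The fovea is the pit at the centre of the macula, where cones are packed at their highest density, rods are absent from the very centre, and each cone is served by its own private line of bipolar and ganglion cells. The cell bodies of these inner neurons are pushed to the rim of the pit, where ganglion cells lie in several layers. A 2 mm punch holds the pit, its rim and the surrounding slope, whereas outside the macula rods outnumber cones by far and ganglion cells thin out to a single layer.

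The 4 foveal libraries held between 48224424 and 58821255 estimated counts and the 4 perimacular libraries between 42448891 and 57150491, with no difference beyond the spread (exact permutation test, two-sided p = 0.4, smallest possible p 0.0286). The 10 most abundant genes of a library took 14.1 to 17.1% of its counts at the fovea and 15.4 to 20.9% at the perimacula (exact permutation test, two-sided p = 0.0571). Both permutation tests treated the 8 libraries as independent and ignored eye and animal. By eye this share was 17.1, 14.1, 14.9 and 15.2% at the fovea and 20.9, 17.4, 15.4 and 17.3% at the perimacula. It was thus higher at the perimacula in each eye. The tissue label held against most markers: scaled to the library total alone, the rod arrestin SAG had 1236 to 6615 CPM in these 8 libraries against 6.29 to 149.8 CPM in the 8 libraries of pigment epithelium and choroid from the same locations, and RPE65, the isomerase of the pigment epithelium, had 51.4 to 103.6 CPM against 1493 to 7687 CPM. ARR3, BEST1, TYRP1 and TTR also separated the tissues. RBPMS, listed below as a ganglion cell marker, did not, with 94.3 to 360.7 CPM against 153.9 to 251.3 CPM. One library stood apart from the rest of its group. Of the 996 genes called with an absolute log2 fold change over 1, the perimacular library of RM04 OS was the perimacular library nearest the foveal mean for 674, against 82 to 145 for each of the other 3. The median absolute log2 difference of these genes between the locations was 0.918 in RM04 OS and 1.36 to 1.46 in the other eyes. Why this library stood apart was not tested. Values without this library are given for named genes where it changed a call or moved the fold change by over 1.5 times.

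Of 15380 genes tested, 5416 (35.2%) differed between the fovea and the perimacula at an adjusted p under 0.05 (edgeR quasi-likelihood test, animal as covariate, Benjamini-Hochberg adjustment), and such genes are said to be called. The fovea had the higher expression for 2928 of them (19% of the genes tested) and the perimacula for 2488 (16.2%). Most differences were small. The median absolute log2 fold change was 0.29 over all genes tested, and 2179 called genes differed by under 0.5, 996 by over 1 and 90 by over 2. Genes with over 1 were more often higher at the fovea, 560 against 436, and those with over 2 less often, 35 against 55, though these counts were not tested against each other. The difference had the same direction in 4 of 4 eyes for 5288 of the called genes. The split by direction depended on the scaling, the filter and the libraries fitted: 54.1% of the calls were higher at the fovea with TMM normalization and 39.5% (2300 of 5827) with upper quartile normalization, although the median log2 fold change of all genes moved only from 0.01 to -0.08. With TMM normalization the share was also 48% with the 8 libraries alone, 48.3 and 48.9% with either flow cell alone and 48.1% with no filter on low counts. It was 51% with the nasal libraries included and 55.5% with the eye as covariate in place of the animal. Without the perimacular library of RM04 OS, 5651 genes were called, 3191 of them higher at the fovea. The count was 3225 genes without RM03 OD and 3406 without RM04 OD. For the gene lists below, 4 counts in brackets are those without RM03 OD, RM03 OS, RM04 OD and RM04 OS, and they stand where leaving out an eye moved a list's count by over 1.5 times. Every list count is to be read beside the shares of all genes, 19% higher at the fovea and 16.2% at the perimacula.

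**Figure D1:**
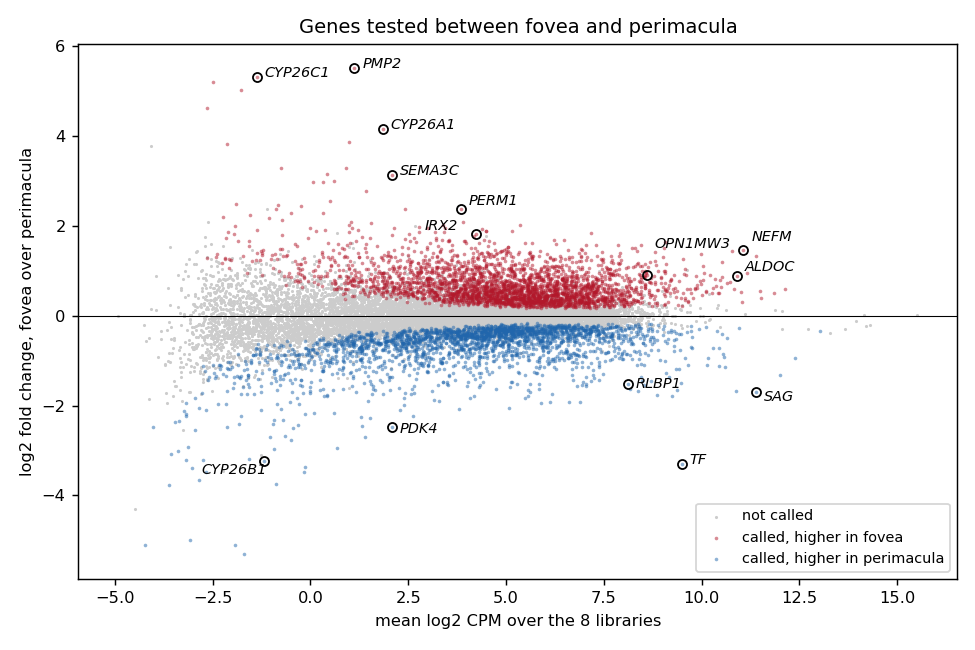
Log2 fold change of fovea over perimacula (vertical axis) against the mean log2 CPM of the 8 libraries (horizontal axis) for the 15380 genes tested, coloured by direction where called and grey where not. Circles mark genes named in the text; TF lies alone among abundant genes at -3.31, and CYP26A1 and CYP26C1 lie far above the cloud.

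The 10 largest increases and 10 largest decreases among well expressed genes that moved one way in every eye were not those of the photoreceptor cascade. TF (ENSMMUG00000008916), which encodes the iron carrier transferrin, had 235, 263, 195 and 243 CPM at the fovea and 2088, 2572, 3218 and 1417 CPM at the perimacula. It was therefore 9.93-fold lower at the fovea (log2 fold change -3.31, SE 0.23, edgeR adjusted p = 8.66e-06), and the highest foveal library lay far below the lowest perimacular one. At the periphery TF reached 10017, 12570.0, 14431 and 12765 CPM. NT5E (ENSMMUG00000005442), the ecto-nucleotidase CD73 that makes adenosine, had 50.2 ± 3.99 CPM at the fovea and 191 ± 26.8 at the perimacula (SD, n = 4 eyes; log2 fold change -1.92, SE 0.12, edgeR adjusted p = 5.69e-06). RBBP8 (ENSMMUG00000012715), a DNA end resection factor, had 60.7 ± 6.55 CPM at the fovea and 231 ± 28.9 at the perimacula (-1.92, edgeR adjusted p = 5.69e-06, log2). The nicotinic acetylcholine receptor subunit CHRNA3 (ENSMMUG00000023736) had 48.7, 37.5, 28.4 and 32.9 CPM at the fovea and 163, 124, 168 and 91.1 CPM at the perimacula (log2 fold change -1.91, SE 0.18, edgeR adjusted p = 3.63e-05), and the groups did not overlap. AOX2, an aldehyde oxidase, KIF27, a kinesin, DDR2, a collagen receptor, and FNDC1, with a fibronectin domain, differed by -1.95, -1.83, -1.90 and -2.05 on the log2 scale. The transcription factor FOXP2 had 5.03, 4.91, 4.2 and 4.74 CPM at the fovea and 26.9, 29.5, 12.6 and 7.6 CPM at the perimacula (log2 fold change -1.87, SE 0.26, edgeR adjusted p = 0.000358), so that the perimacular values of RM03 were at least 2 times those of RM04. C3P1, a complement-related locus, split by animal in the same way, with 4.09, 5.3, 9.68 and 7.73 CPM at the fovea and 47.7, 44.9, 18.9 and 22 CPM at the perimacula (log2 fold change -2.07, SE 0.47, edgeR adjusted p = 0.00519).

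Among genes higher at the fovea, PERM1 (ENSMMUG00000022525), a regulator of mitochondrial and metabolic genes known from muscle, had 26.4, 37.2, 34.8 and 33.9 CPM at the fovea and 4.73, 6.5, 4.89 and 9.78 CPM at the perimacula. It was 5.17-fold higher at the fovea (log2 fold change 2.37, SE 0.27, edgeR adjusted p = 9.62e-05), and the perimacular library of RM04 OS was the one closest to the fovea. SFRP1 (ENSMMUG00000019082), a secreted Wnt inhibitor, had 22 ± 7.88 CPM at the fovea and 5.27 ± 1.4 at the perimacula (log2 fold change 2.02, SE 0.14, edgeR adjusted p = 8.66e-06). RAMP3 (ENSMMUG00000047334), an accessory protein of calcitonin-family receptors, had 16.7, 25.9, 23.3 and 20.4 CPM at the fovea and 3.79, 6.56, 6.39 and 5.57 CPM at the perimacula (log2 fold change 1.95, SE 0.24, edgeR adjusted p = 0.000157). NETO2 (ENSMMUG00000028921), an auxiliary subunit of kainate receptors, had 44.3 ± 10.7 CPM at the fovea and 11.7 ± 2.7 at the perimacula (1.88, edgeR adjusted p = 0.000116, log2). CPLX2, a complexin of the synaptic release machinery, had 36.5, 88.3, 113 and 129 CPM at the fovea and 9.79, 23.4, 28.8 and 25.8 CPM at the perimacula (log2 fold change 2.01, SE 0.39, edgeR adjusted p = 0.00203), and RM03 OD was the lowest library of both groups. SEC16B, of endoplasmic reticulum exit sites, STK32A, a kinase, ZDHHC19, a palmitoyltransferase, and TMEM74B, a membrane protein, rose by 1.93, 1.87, 1.87 and 2.08 on the log2 scale. CHAC1 (ENSMMUG00000014542), which degrades glutathione, had 33, 99.6, 90.1 and 74.9 CPM at the fovea and 9.02, 29.4, 20.8 and 20.4 CPM at the perimacula (log2 fold change 1.88, SE 0.48, edgeR adjusted p = 0.00949); without RM04 OD its log2 fold change was 1.79 (edgeR adjusted p = 0.0797), and so missed the threshold.

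**Figure D2:**
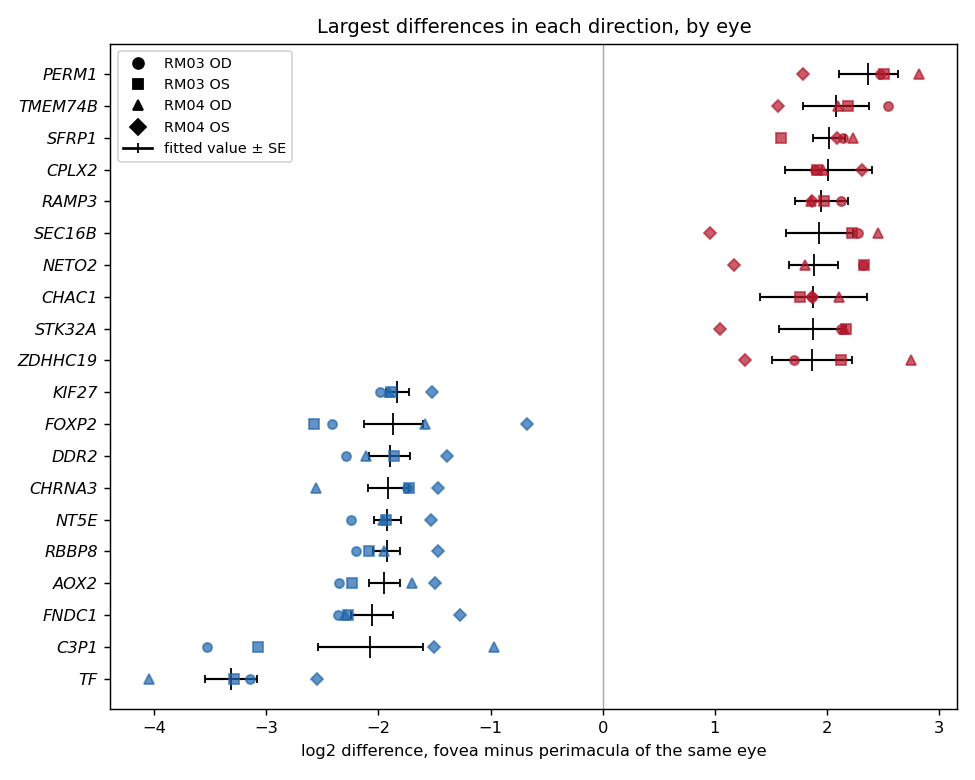
Log2 difference of fovea minus perimacula within each eye (horizontal axis) for the 10 genes with the largest increase and the 10 with the largest decrease, with symbols for the 4 eyes and a black bar with its SE for the fitted value. By the rule that chose them, all 20 genes have every eye on the same side of 0. RM04 OS (diamonds) is the eye nearest 0 for 15 of them, the exceptions being SFRP1, CHAC1, CPLX2, RAMP3 and C3P1.

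Rods and cones detect light with parallel sets of proteins: a visual pigment activates a G protein (transducin), this activates a phosphodiesterase (PDE6), and the fall in cyclic GMP closes a cation channel. Of 13 rod markers listed, 9 were tested and all 9 were higher at the perimacula, with a median log2 fold change of -1.67 against 0.01 over all genes. Their summed level was 4261, 4928, 4419.6 and 4716 CPM at the fovea and 15622, 14700.2, 16611 and 10944 CPM at the perimacula, lowest there in RM04 OS. In bulk tissue, fewer cells of a type and less RNA per cell cannot be told apart. SAG (ENSMMUG00000023359), the rod arrestin, had 1298, 1525, 1501 and 1653 CPM at the fovea and 4824, 4503, 6210.2 and 3892 CPM at the perimacula (log2 fold change -1.70, SE 0.13, edgeR adjusted p = 1.13e-05). The rod phosphodiesterase subunits PDE6A and PDE6B differed by -1.68 and -1.77 and the transducin gamma subunit GNGT1 by -1.79 on the log2 scale, with adjusted p of 8.41e-06, 2.09e-05 and 5.69e-06 (edgeR). The rod fate factor NRL (ENSMMUG00000007361) had 377 ± 48.5 CPM at the fovea and 1188 ± 301 at the perimacula (log2 fold change -1.66, SE 0.17, edgeR adjusted p = 5.99e-05). The groups did not overlap for any of these 5 genes, which was so for 28.7% of all genes tested. All 9 were also called without the perimacular library of RM04 OS, with a median of -1.76.

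Of 13 cone markers tested, 11 were higher at the fovea, 1 was higher at the perimacula and 1 was not called, with a median log2 fold change of 0.62, a smaller shift than that of the rod markers. The summed level was 4401, 4559, 5193 and 4833 CPM at the fovea and 3295, 3049.9, 3509 and 4142 CPM at the perimacula. GNAT2 (ENSMMUG00000005819), the cone transducin, had 227, 221, 246 and 224 CPM at the fovea and 137, 104, 125 and 188 CPM at the perimacula (log2 fold change 0.74, SE 0.13, edgeR adjusted p = 0.00124). PDE6C (ENSMMUG00000014713), the cone phosphodiesterase, had 176 ± 31.5 CPM at the fovea and 107 ± 19.8 at the perimacula (log2 fold change 0.70, SE 0.11, edgeR adjusted p = 0.000866). The cone cyclic nucleotide-gated channel subunits CNGA3 and CNGB3 rose by 0.84 and 0.80 on the log2 scale, the cone exchanger SLC24A2 by 0.98 and the nuclear receptor RXRG by 0.82, with adjusted p between 0.000148 and 0.00227 (edgeR). The entry listed as OPN1MW3, named here after its values were seen, belongs to the red and green cone pigments, whose near-identical copies share reads, and had 572, 531, 507 and 508 CPM at the fovea and 328, 249, 253 and 309 CPM at the perimacula (log2 fold change 0.89, SE 0.12, edgeR adjusted p = 0.000224). ARR3 (ENSMMUG00000013935), the cone arrestin, had 904, 953, 869 and 765 CPM at the fovea and 697, 602, 617 and 740.1 CPM at the perimacula, a smaller difference (log2 fold change 0.39, SE 0.09, edgeR adjusted p = 0.00665) that lost its call without RM03 OD (0.37 (edgeR adjusted p = 0.0578)), without RM03 OS (0.27 (edgeR adjusted p = 0.0732)) and without RM04 OD (0.35 (edgeR adjusted p = 0.0642)). KCNV2, a potassium channel subunit that rods also use, went the other way (log2 fold change -0.47, SE 0.14, edgeR adjusted p = 0.0244); it was not called without RM03 OD (-0.46 (edgeR adjusted p = 0.116)) or without RM04 OD (-0.39 (edgeR adjusted p = 0.184)). Without the perimacular library of RM04 OS, 12 of the 13 were higher at the fovea and the median was 0.77.

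Genes that both photoreceptor types use followed the rod markers: 18 of 18 tested were higher at the perimacula, with a median of -0.87. ABCA4 (ENSMMUG00000013858), the retinoid flippase of outer segment discs, had 1002, 1075, 1044 and 1069 CPM at the fovea and 2534, 2314, 2568 and 1827 CPM at the perimacula (log2 fold change -1.14, SE 0.12, edgeR adjusted p = 5.99e-05). GUCY2F, an outer segment guanylate cyclase, fell most in this list, with 39.3 ± 3.03 CPM at the fovea and 134 ± 29.1 at the perimacula (log2 fold change -1.75, SE 0.11, edgeR adjusted p = 5.69e-06). AIPL1, a chaperone of PDE6, and RP1, of the outer segment axoneme, differed by -1.12 and -1.10 on the log2 scale. The photoreceptor transcription factor CRX had 87.8, 102, 65.4 and 76.9 CPM at the fovea and 207, 188, 125 and 94.6 CPM at the perimacula (log2 fold change -0.86, SE 0.15, edgeR adjusted p = 0.00127), with the perimacular values of RM03 about double those of RM04 OS and overlap between the groups.

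**Figure D3:**
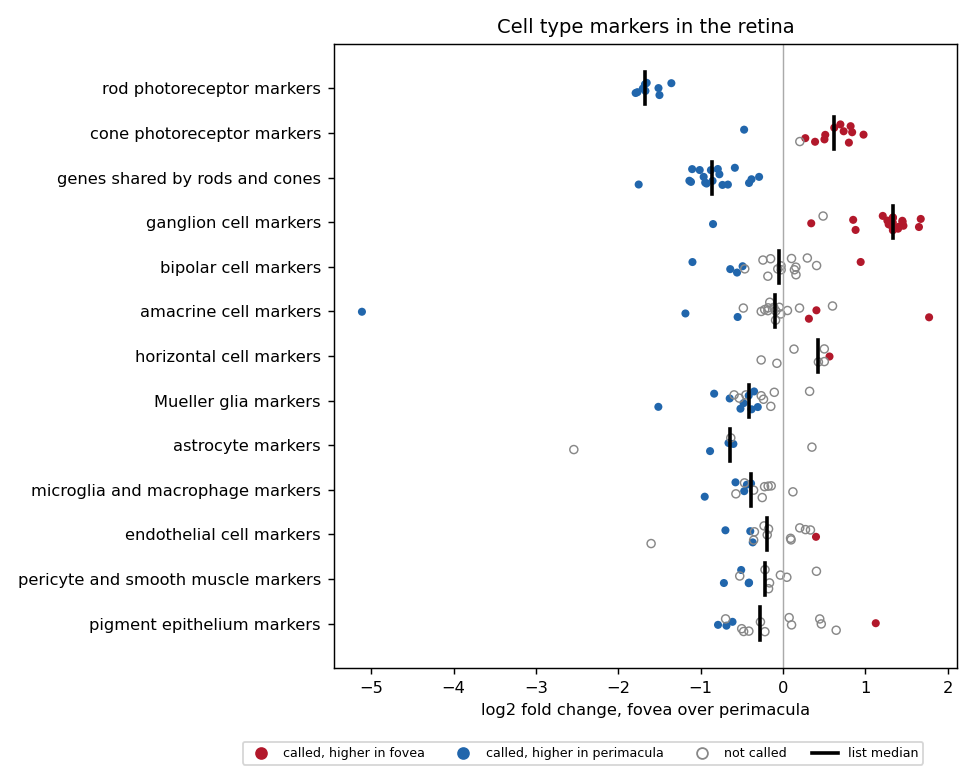
Log2 fold change of fovea over perimacula (horizontal axis) for each tested marker of 13 cell type lists (vertical axis), with filled points where called, open points where not and a black bar at the median of the list. Rod markers cluster near -1.67 and ganglion cell markers near 1.33, while bipolar and amacrine markers scatter around 0.

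Ganglion cells send the axons of the optic nerve. Of 20 ganglion cell markers tested, 18 were higher at the fovea, 1 at the perimacula and 1 was not called, with a median log2 fold change of 1.33. Their summed level was 13849, 13289, 11791 and 12918 CPM at the fovea and 5439, 4697, 3491 and 7627 CPM at the perimacula, highest there in RM04 OS, and the groups did not overlap. NEFL (ENSMMUG00000003348), the light neurofilament, had 3096, 3290.3, 2713 and 2837 CPM at the fovea and 1107, 1001, 699 and 1552 CPM at the perimacula (log2 fold change 1.45, SE 0.24, edgeR adjusted p = 0.000967), and at the periphery 239, 117, 178 and 152 CPM. NEFM (ENSMMUG00000000639), the medium neurofilament, had 3661 ± 310.3 CPM at the fovea and 1326 ± 484 at the perimacula (1.46, edgeR adjusted p = 0.00122, log2). RBPMS (ENSMMUG00000000458), an RNA-binding protein of ganglion cells, had 325, 314, 343 and 371 CPM at the fovea and 118, 103, 88.5 and 233 CPM at the perimacula (log2 fold change 1.34, SE 0.29, edgeR adjusted p = 0.00452), and the surface protein THY1 had 691 ± 79 CPM at the fovea and 299.7 ± 103 at the perimacula (1.21, edgeR adjusted p = 0.00587, log2). The RBPMS level in retina overlapped that in pigment epithelium and choroid, so that RBPMS is not particular to ganglion cells here. The transcription factor TBR1 had 21.4 ± 2.54 CPM at the fovea and 6.86 ± 3.84 at the perimacula (1.67, edgeR adjusted p = 0.00351, log2) and the synaptotagmin SYT2 rose by 1.45. POU4F1 (ENSMMUG00000030683) and POU4F2 (ENSMMUG00000023440), the Brn3 factors of ganglion cell development, rose by 1.65 and 1.33 on the log2 scale (edgeR adjusted p = 0.00358 and 0.00751). Without RM04 OD they were at 1.56 (edgeR adjusted p = 0.0501) and 1.17 (edgeR adjusted p = 0.0534), and so missed the threshold. POU4F2 had 94, 87.2, 96.4 and 99.7 CPM at the fovea and 36.3, 28.7, 21.2 and 64.2 CPM at the perimacula. OPN4 (ENSMMUG00000003607), the melanopsin of intrinsically light-sensitive ganglion cells, was the member that was lower at the fovea, with 2.79, 1.94, 5.34 and 6.21 CPM at the fovea and 3.92, 4.22, 9.49 and 12.1 CPM at the perimacula (log2 fold change -0.85, SE 0.24, edgeR adjusted p = 0.0178). The groups overlapped, and its call was lost without RM04 OD (-0.86 (edgeR adjusted p = 0.109)) and without RM04 OS (-0.83 (edgeR adjusted p = 0.0505)). Without the perimacular library of RM04 OS the list again had 18 members higher at the fovea and 1 at the perimacula, with a median of 1.57.

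Axon and sodium channel genes were also mostly higher at the fovea, whereas potassium channel genes were split. Of 32 neurofilament and axon cytoskeleton genes, a list that shares its neurofilaments with the ganglion cell markers, 26 were higher at the fovea and 1 at the perimacula (median 0.89). PRPH (ENSMMUG00000031976), the intermediate filament peripherin, had 191, 280.4, 323 and 323 CPM at the fovea and 55.8, 77.5, 69.9 and 106 CPM at the perimacula (log2 fold change 1.85, SE 0.20, edgeR adjusted p = 8.8e-05). MAP2, a microtubule protein of dendrites, was the member that fell, with 493 ± 28.9 CPM at the fovea and 639 ± 42.6 at the perimacula (-0.37, edgeR adjusted p = 0.00156, log2). Of 11 voltage-gated sodium channel genes, 7 were higher at the fovea and 0 at the perimacula (median 0.75); the pore subunits SCN8A (ENSMMUG00000000415) and SCN1A (ENSMMUG00000008407) rose by 1.22 and 1.04 on the log2 scale, SCN8A with 129 ± 4.93 CPM at the fovea and 55.8 ± 20.8 at the perimacula (edgeR adjusted p = 0.00064 and 0.00243), and the beta subunit SCN2B rose by 1.29. Of 41 potassium channel genes, 12 were higher at the fovea and 9 at the perimacula [5, 8, 7 and 8 at the perimacula], shares of 29.3% and 22% beside 19% and 16.2% of all genes. Their median of 0.06 turned negative with upper quartile normalization (-0.03) and without RM04 OS (-0.03). KCNC2 (ENSMMUG00000012362), a Kv3 channel of fast-spiking neurons, had 1097, 890.2, 971 and 955 CPM at the fovea and 307, 235, 191 and 543 CPM at the perimacula (log2 fold change 1.63, SE 0.29, edgeR adjusted p = 0.00139), and KCNA2, a Kv1 channel of axons, rose by 1.14. The Elk channel gene KCNH8 had 25.8 ± 5.64 CPM at the fovea and 60.8 ± 5.33 at the perimacula (-1.25, edgeR adjusted p = 0.000156, log2). Of 25 calcium and HCN channel genes, 13 were higher at the fovea and 2 at the perimacula (median 0.51); at the perimacula it was 5 with upper quartile normalization or the 8 libraries alone, and 6 and 4 with either flow cell alone. The T-type channel gene CACNA1H had 189.9, 235, 358 and 354 CPM at the fovea and 54.2, 88.3, 99.7 and 142 CPM at the perimacula (log2 fold change 1.57, SE 0.26, edgeR adjusted p = 0.000946), and HCN2, a pacemaker channel, rose by 1.08. Of the 2, CACNA1F, the L-type channel of photoreceptor synapses, had 479.7 ± 23.4 CPM at the fovea and 827 ± 85.9 at the perimacula (-0.78, edgeR adjusted p = 7.91e-05, log2), and its partner CACNA2D4 differed by -0.55.

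Bipolar, amacrine and horizontal cells relay and shape the signal between photoreceptors and ganglion cells, and most of their markers were not called. Of all genes tested, 35.2% were called. Of 18 bipolar markers, 1 was higher at the fovea and 4 at the perimacula, shares of 5.56% and 22.2% beside 19% and 16.2% of all genes, with a median of -0.04 [1, 2, 1 and 1 at the fovea]. PRKCA (ENSMMUG00000018378), the protein kinase C of rod bipolar cells, had 20.4, 18.2, 26.8 and 28.9 CPM at the fovea and 49.7, 43.7, 55.4 and 51 CPM at the perimacula (log2 fold change -1.10, SE 0.09, edgeR adjusted p = 1.8e-05) and the groups lay far apart. TRPM1, the channel of ON bipolar dendrites, had 81.9 ± 7.41 CPM at the fovea and 120.4 ± 7.57 at the perimacula (-0.56, edgeR adjusted p = 0.000572, log2), and CABP5, a calcium-binding protein of bipolar cells, differed by -0.64. GRM6, the glutamate receptor of ON bipolar cells, differed by -0.49, edgeR adjusted p = 0.0351; with the eye as a replicate block in place of the animal it was at -0.49 (edgeR adjusted p = 0.0571), without RM03 OD at -0.52 (edgeR adjusted p = 0.123) and without RM04 OD at -0.52 (edgeR adjusted p = 0.142). IRX6, a homeobox factor of some OFF cone bipolar cells, was the member higher at the fovea, with 19.4 ± 1.04 CPM at the fovea and 10.1 ± 2.01 at the perimacula (0.94, edgeR adjusted p = 0.000491, log2). Of 20 amacrine markers 3 were higher at the fovea and 3 at the perimacula [1, 2, 2 and 3 at the fovea], a share of 15% each beside 19% and 16.2% of all genes. EBF2, listed there and also expressed by other inner neurons, had 42.7, 39.3, 27.8 and 31.2 CPM at the fovea and 12.1, 9.83, 4.96 and 13.8 CPM at the perimacula (log2 fold change 1.77, SE 0.28, edgeR adjusted p = 0.000661), whereas the glycine transporter SLC6A9 had 129.9 ± 19.4 CPM at the fovea and 189.95 ± 31.2 at the perimacula (-0.55, edgeR adjusted p = 0.00444, log2) and the neuropeptide gene CARTPT had 3.35 to 12.2 CPM at the fovea and 9.72 to 29.1 CPM at the perimacula (-1.18, edgeR adjusted p = 0.00552, log2). GAD1, which makes GABA, had 98.4 ± 11.6 CPM at the fovea and 111 ± 19.2 at the perimacula and was not called (log2 fold change -0.16, SE 0.13, edgeR adjusted p = 0.377). Of 7 horizontal cell markers CALB1 (ENSMMUG00000006664), the calcium-binding protein calbindin, was the one called, with 599, 654, 517 and 494 CPM at the fovea and 384, 393, 334 and 407 CPM at the perimacula (log2 fold change 0.56, SE 0.09, edgeR adjusted p = 0.000844); cones and other neurons also express it. LHX1 and ONECUT1 were not called, at 0.50, edgeR adjusted p = 0.0735, and 0.43, edgeR adjusted p = 0.291; LHX1 was at 0.65 (edgeR adjusted p = 0.0209) without RM03 OS. In all, 2 of the 7 were called without the perimacular library of RM04 OS.

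Mueller glia span the retina and handle glutamate, potassium and retinoids for the neurons. Of 17 Mueller markers, 0 were higher at the fovea and 9 were higher at the perimacula (median -0.42) [6, 6, 5 and 9 at the perimacula]. RLBP1 (ENSMMUG00000014420), the retinaldehyde-binding protein, had 174, 203, 144 and 149 CPM at the fovea and 507, 588, 527 and 293 CPM at the perimacula (log2 fold change -1.51, SE 0.18, edgeR adjusted p = 0.000132), and 1277, 1355, 1585 and 1427 CPM at the periphery. The filament protein VIM had 191 ± 40.6 CPM at the fovea and 338 ± 74.1 at the perimacula (-0.84, edgeR adjusted p = 0.00065, log2), and the potassium channel KCNJ10 had 95.7 ± 5.2 CPM at the fovea and 149.9 ± 11.6 at the perimacula (-0.65, edgeR adjusted p = 0.000253, log2). FRZB, a secreted Wnt inhibitor, was at -0.52, edgeR adjusted p = 0.0183, and 3 of 4 eyes had it lower at the fovea; it was not called without RM03 OD (-0.53 (edgeR adjusted p = 0.0686)), without RM03 OS (-0.51 (edgeR adjusted p = 0.0604)) or without RM04 OD (-0.40 (edgeR adjusted p = 0.145)). The glutamine synthetase GLUL, a symbol carried by several entries, had 655 ± 21.2 CPM at the fovea and 786 ± 45.6 at the perimacula (not called, log2 fold change -0.26, SE 0.12, edgeR adjusted p = 0.0992) and was called with upper quartile normalization, at -0.35 (edgeR adjusted p = 0.0358). The water channel AQP4 and the filament GFAP were not called either, at -0.15, edgeR adjusted p = 0.549, and -0.63, edgeR adjusted p = 0.0546; GFAP passed the threshold without RM04 OS (-0.89 (edgeR adjusted p = 0.041)) and without its perimacular library alone (-0.76 (edgeR adjusted p = 0.0311)). Without the perimacular library of RM04 OS, 11 of the 17 were higher at the perimacula.

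Most markers of blood vessels, immune and pigment cells were not called, and neither were most genes, of which 35.2% were called. Of 15 endothelial markers 1 was higher at the fovea and 3 at the perimacula [0, 2, 1 and 1 at the fovea], shares of 6.67% and 20% beside 19% and 16.2% of all genes, and the summed level overlapped (826.7 to 1015 CPM at the fovea and 843.2 to 1024 CPM at the perimacula). VWF, of vessel walls, had 7.72 ± 0.968 CPM at the fovea and 12.7 ± 2.92 at the perimacula (-0.70, edgeR adjusted p = 0.00265, log2), KDR, the main VEGF receptor, had 283 ± 22.8 CPM at the fovea and 365 ± 18.5 at the perimacula (-0.37, edgeR adjusted p = 0.00491, log2), and PECAM1 was not called (-0.19, edgeR adjusted p = 0.23, log2). Of 11 pericyte and smooth muscle markers 4 (36.4%, beside 16.2% of all genes) were higher at the perimacula and 0 at the fovea. Of 13 microglia and macrophage markers 5 (38.5%, beside 16.2% of all genes) were higher at the perimacula, but 2 with the eye as a replicate block, 2 with either flow cell alone and 3 without the perimacular library of RM04 OS [0, 0, 1 and 6]. Of 15 pigment epithelium markers 1 was higher at the fovea and 3 at the perimacula, the same shares as the endothelial markers, and their summed level overlapped (427.2 to 543.1 CPM at the fovea and 436.6 to 596.9 CPM at the perimacula). RPE65 (ENSMMUG00000002752) had 56.6, 105, 67 and 55.6 CPM at the fovea and 54, 101, 77.5 and 94 CPM at the perimacula and was not called (log2 fold change -0.22, SE 0.26, edgeR adjusted p = 0.554). TYRP1, of melanosomes, had 19.4 ± 1.24 CPM at the fovea and 33.6 ± 5.05 at the perimacula (-0.79, edgeR adjusted p = 0.0013, log2), whereas MITF (ENSMMUG00000002100), a transcription factor with roles beyond pigment cells, had 45.7, 44.5, 35.1 and 41.2 CPM at the fovea and 19.9, 18.4, 12.7 and 24.9 CPM at the perimacula (log2 fold change 1.13, SE 0.18, edgeR adjusted p = 0.000704). Of 6 astrocyte, 8 melanocyte and fibroblast and 3 red blood cell markers, 3, 2 and 1 were higher at the perimacula and 0 of each at the fovea. The red blood cell gene lost its call without RM03 OD, RM03 OS or RM04 OD. Without the perimacular library of RM04 OS, 5 astrocyte markers were higher at the perimacula and 1 at the fovea. The myelin protein gene PMP2 (ENSMMUG00000047024), among 10 myelin and Schwann cell markers, had 53.9, 38.7, 3.33 and 3.81 CPM at the fovea and 0.347, 0.37, 0.263 and 0.379 CPM at the perimacula (log2 fold change 5.50, SE 0.67, edgeR adjusted p = 0.000157). Its foveal level was thus over 10 times higher in RM03 than in RM04, with like levels in fellow eyes and at most 0.379 CPM in any perimacular library. The log2 fold change was 4.69 (edgeR adjusted p = 0.00422) without RM03 OD and 6.13 (edgeR adjusted p = 0.000475) without RM04 OS.

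**Figure D4:**
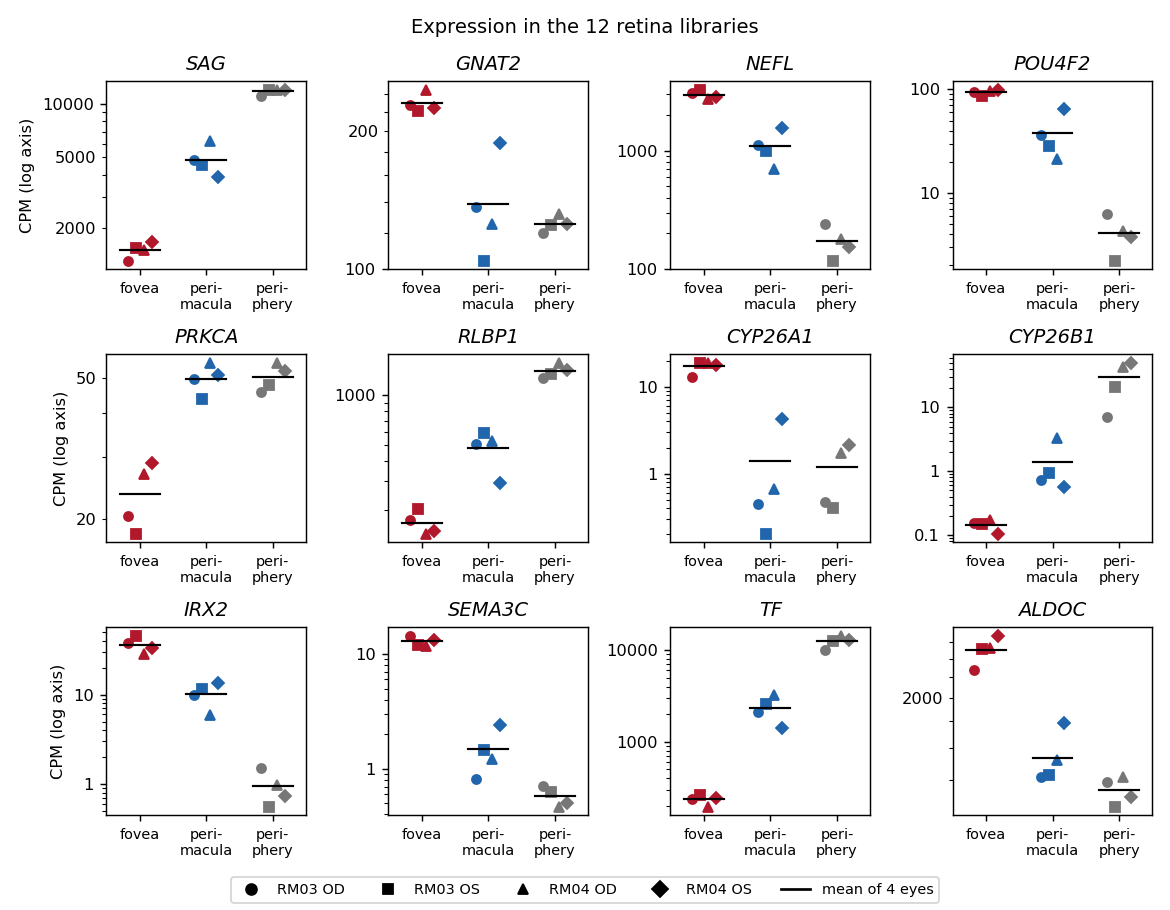
CPM on a log axis for 12 genes in the 12 retina libraries, grouped by location, with a symbol per eye and a bar at the mean of 4 eyes; the periphery was sequenced on another flow cell. SAG, RLBP1, TF and CYP26B1 step up from fovea to perimacula, NEFL, POU4F2, IRX2 and SEMA3C step down, and the perimacular CYP26A1 value of RM04 OS lies apart at 4.21 CPM.

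Retinoic acid is made from vitamin A by ALDH1A enzymes and broken down by CYP26 enzymes, and a zone of breakdown in the developing central retina is known from several species with a high-acuity area. The 3 CYP26 genes gave the widest contrasts of the pathway. CYP26A1 (ENSMMUG00000010881) had 13.1, 19, 18.8 and 17.9 CPM at the fovea and 0.446, 0.204, 0.673 and 4.21 CPM at the perimacula (log2 fold change 4.16, SE 0.63, edgeR adjusted p = 0.00057). In 3 perimacular libraries it lay below 0.7 CPM, and only that of RM04 OS stood higher; without that library the log2 fold change was 5.27 (edgeR adjusted p = 1.57e-05), without the whole eye 5.40 (edgeR adjusted p = 0.00013) and without RM03 OS 3.46 (edgeR adjusted p = 0.00545). CYP26C1 (ENSMMUG00000040561) had 2.68, 2.05, 2.09 and 1.92 CPM at the fovea and 0.0992, 0, 0.115 and 0 CPM at the perimacula (log2 fold change 5.30, SE 0.67, edgeR adjusted p = 0.000192), with 0 counts in 2 perimacular libraries and low counts in the others; it was at 6.29 (edgeR adjusted p = 0.00287) without RM04 OD. CYP26B1 (ENSMMUG00000012141), named after its values were seen because it lies below the level set for naming list members, went the other way, with 0.152, 0.149, 0.174 and 0.105 CPM at the fovea and 0.719, 0.944, 3.3 and 0.569 CPM at the perimacula (log2 fold change -3.23, SE 0.67, edgeR adjusted p = 0.00312) and 7.12, 20.8, 42.5 and 50.3 CPM at the periphery; without RM04 OD, the highest perimacular library, it was at -2.54 (edgeR adjusted p = 0.0525) and was not called. The receptor gene RARB, itself a known target of retinoic acid, had 12.2, 12.4, 13.6 and 12.4 CPM at the fovea and 31, 25.6, 30.6 and 25.2 CPM at the perimacula (log2 fold change -1.15, SE 0.10, edgeR adjusted p = 1.9e-05), without overlap. RARRES2, named for its response to a retinoid, had 3.45 ± 0.874 CPM at the fovea and 11.3 ± 5.33 at the perimacula (-1.73, edgeR adjusted p = 0.00194, log2), and RDH10, which makes retinaldehyde, had 23.3 ± 2.3 CPM at the fovea and 66.9 ± 13.5 at the perimacula (-1.52, edgeR adjusted p = 8.47e-05, log2). RBP4, the retinol carrier, had 16.8 ± 3.47 CPM at the fovea and 8.22 ± 1.34 at the perimacula (1.03, edgeR adjusted p = 0.00129, log2). Of the synthesizing enzymes, ALDH1A1 was at -0.57, edgeR adjusted p = 0.0187, with overlapping groups, and lost its call without RM03 OD (-0.64 (edgeR adjusted p = 0.063)) and without RM04 OD (-0.38 (edgeR adjusted p = 0.158)), and ALDH1A3 had 5.99 ± 0.641 CPM at the fovea and 6.17 ± 1.44 at the perimacula (not called, log2 fold change -0.04, SE 0.34, edgeR adjusted p = 0.942). In all, 5 of 21 genes of the pathway were higher at the fovea and 6 at the perimacula [5, 5, 3 and 5 at the perimacula], shares of 23.8% and 28.6% beside 19% and 16.2% of all genes.

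The visual cycle turns the bleached chromophore back into its light-sensitive form. Of its 15 tested genes 9 were higher at the perimacula and 0 at the fovea (median -0.69), and several of them, such as RLBP1 and ABCA4, also stand in the lists of Mueller and photoreceptor genes. RDH8, the retinol dehydrogenase of outer segments, had 52 ± 4.37 CPM at the fovea and 119 ± 25.2 at the perimacula (-1.19, edgeR adjusted p = 0.000103, log2), and DHRS9, a related dehydrogenase, had 3.18, 2.29, 0.715 and 1.01 CPM at the fovea and 8.2, 7.11, 2.68 and 2.16 CPM at the perimacula (log2 fold change -1.49, SE 0.18, edgeR adjusted p = 0.00014), with levels that differed between the animals at both locations.

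Thyroid hormone acts in cone development, and 3 of 9 genes that handle it were higher at each location [3, 2, 1 and 2 at the perimacula], a share of 33.3% each beside 19% and 16.2% of all genes. The receptor THRA (ENSMMUG00000002931) had 145, 148, 147 and 146 CPM at the fovea and 90.5, 94.6, 97.6 and 109 CPM at the perimacula (log2 fold change 0.59, SE 0.09, edgeR adjusted p = 0.000761), with a narrow range at the fovea. DIO2 (ENSMMUG00000045646), which activates the hormone, had 2.83 ± 0.426 CPM at the fovea and 1.36 ± 0.429 at the perimacula (log2 fold change 1.13, SE 0.25, edgeR adjusted p = 0.00495) and was at 0.96 (edgeR adjusted p = 0.0502) without RM03 OS. CRYM, which binds the hormone in the cytosol, had 11.7 ± 1.91 CPM at the fovea and 35 ± 10.8 at the perimacula (-1.59, edgeR adjusted p = 0.000398, log2).

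The Iroquois homeobox factors, which mark subsets of inner neurons, rose together: 6 of 6 were higher at the fovea, with a median of 1.43. IRX2 (ENSMMUG00000005802) had 38, 45.8, 28.4 and 33.1 CPM at the fovea and 9.89, 11.6, 5.9 and 13.5 CPM at the perimacula (log2 fold change 1.82, SE 0.28, edgeR adjusted p = 0.000571), and 1.53, 0.555, 0.973 and 0.732 CPM at the periphery. IRX1 (ENSMMUG00000002613) had 14.2, 21.7, 15.1 and 16.2 CPM at the fovea and 5.55, 5.57, 3.27 and 6.63 CPM at the perimacula (log2 fold change 1.68, SE 0.28, edgeR adjusted p = 0.00093). IRX3 and IRX5 rose by 1.18 and 0.96, and IRX3 was at 0.96 (edgeR adjusted p = 0.0766) without RM04 OD. Without that eye 4 of the 6 were called, and without the perimacular library of RM04 OS 5. Among 15 transcription factors of the retinal axes, 3 were higher at each location [1, 3, 1 and 3 at the perimacula], a share of 20% each beside 19% and 16.2% of all genes. ZFHX4 and ZFHX3, large zinc finger homeobox factors, rose by 1.27 and 1.08 on the log2 scale, ZFHX4 with 144 ± 10.5 CPM at the fovea and 60.5 ± 23.2 at the perimacula (edgeR adjusted p = 0.000695 and 0.000179). NR2F1, a nuclear receptor of ventral and peripheral identity, was at -0.72, edgeR adjusted p = 0.0177, with -0.72 (edgeR adjusted p = 0.0878) without RM03 OD and -0.67 (edgeR adjusted p = 0.134) without RM04 OD. VAX2, a ventral factor, had 9.65, 13.5, 13 and 12.2 CPM at the fovea and 16.7, 28.9, 32.2 and 15.4 CPM at the perimacula (log2 fold change -0.95, SE 0.34, edgeR adjusted p = 0.0484); it was at -0.94 (edgeR adjusted p = 0.0784) with the eye as a replicate block, -1.02 (edgeR adjusted p = 0.142) without RM03 OD and -0.84 (edgeR adjusted p = 0.244) without RM04 OD. The dorsal factor TBX5 had 2.48, 3.7, 6.54 and 11.2 CPM at the fovea and 0.273, 0.0556, 5.26 and 4.15 CPM at the perimacula, and was not called (log2 fold change 1.50, SE 1.40, edgeR adjusted p = 0.436); it was called without RM03 OS (1.39 (edgeR adjusted p = 0.0341)) and with the 8 libraries alone (2.04 (edgeR adjusted p = 0.0361)). NPVF, a neuropeptide gene, also differed between the animals, with 17, 10.7, 1.78 and 1.98 CPM at the fovea and 3.35, 2.48, 1 and 0.796 CPM at the perimacula (log2 fold change 1.72, SE 0.34, edgeR adjusted p = 0.00228).

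Secreted and surface cues for axons and vessels held some of the steepest contrasts. SEMA3C (ENSMMUG00000011785), a secreted semaphorin, had 14.5, 12.1, 11.8 and 13.2 CPM at the fovea and 0.818, 1.46, 1.22 and 2.41 CPM at the perimacula, which is 8.69-fold higher at the fovea (log2 fold change 3.12, SE 0.27, edgeR adjusted p = 2.38e-05), without overlap. NRP2 (ENSMMUG00000020052), a semaphorin and VEGF coreceptor, had 17.1, 15.2, 17.8 and 24.6 CPM at the fovea and 5.5, 5.81, 5.01 and 6.65 CPM at the perimacula (log2 fold change 1.69, SE 0.15, edgeR adjusted p = 2.38e-05). Of 45 semaphorin, plexin, slit and netrin genes, 15 were higher at the fovea and 9 at the perimacula [7, 12, 11 and 12 at the fovea, 6, 8, 4 and 10 at the perimacula], shares of 33.3% and 20% beside 19% and 16.2% of all genes. The split was 12 and 13 with upper quartile normalization, and 13 and 13 with the 8 libraries alone. Among the 9, PLXNB3, a plexin, was at -0.92, edgeR adjusted p = 0.0134, and SLIT1 at -0.63, edgeR adjusted p = 0.0121; without RM04 OD both missed the threshold, at -0.73 (edgeR adjusted p = 0.118) and -0.51 (edgeR adjusted p = 0.126). Of 19 ephrin and Eph receptor genes, 7 were higher at the fovea and 3 at the perimacula (median 0.40) [4, 7, 5 and 5 at the fovea]. EPHA6 (ENSMMUG00000023330) had 18.1, 16.5, 15.6 and 17 CPM at the fovea and 5.87, 5.2, 4.01 and 9.55 CPM at the perimacula (log2 fold change 1.45, SE 0.25, edgeR adjusted p = 0.00109), EPHB6 and EPHA4 rose by 1.39 and 1.00, and the ligand EFNA1 had 9.13 ± 2.14 CPM at the fovea and 3.54 ± 0.527 at the perimacula (1.36, edgeR adjusted p = 0.000463, log2). EPHA3 had 25.3 ± 2.56 CPM at the fovea and 43 ± 3.02 at the perimacula and thus the opposite direction (-0.77, edgeR adjusted p = 0.00011, log2). Members of the one receptor family therefore rose and fell side by side.

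Of 33 Wnt antagonists, ligands and receptors, 1, SFRP1, was higher at the fovea and 10 were higher at the perimacula (median -0.28) [6, 7, 4 and 7 at the perimacula], or 5 with no covariate. WIF1 (ENSMMUG00000016887), a secreted Wnt inhibitor, had 152, 154, 221 and 229 CPM at the fovea and 257, 325, 469 and 312 CPM at the perimacula (log2 fold change -0.86, SE 0.13, edgeR adjusted p = 0.000527), and SFRP2, a paralog of SFRP1, had 12 ± 3.17 CPM at the fovea and 19.8 ± 3.45 at the perimacula (-0.75, edgeR adjusted p = 0.00261, log2). The receptor genes FZD5 and FZD4, the latter the receptor of norrin, were at -0.87, edgeR adjusted p = 0.000491, and -0.53, edgeR adjusted p = 0.0076; FZD4 was at -0.48 (edgeR adjusted p = 0.0628) without RM03 OD. Of 27 BMP pathway genes 9 were higher at the fovea and 3 at the perimacula [3, 3, 3 and 5 at the perimacula], shares of 33.3% and 11.1% beside 19% and 16.2% of all genes. CHRD (ENSMMUG00000007528), the BMP antagonist chordin, had 9.21, 7.03, 12.2 and 11.3 CPM at the fovea and 1.81, 1.89, 3.47 and 6.03 CPM at the perimacula (log2 fold change 1.70, SE 0.26, edgeR adjusted p = 0.000573), the receptor BMPR1B had 5.39 ± 0.548 CPM at the fovea and 9.98 ± 1.6 at the perimacula (-0.88, edgeR adjusted p = 0.000352, log2), and the ligand BMP7 was at -0.65, edgeR adjusted p = 0.000892. Of 21 FGF pathway genes 5 were higher at each location [2, 2, 2 and 4 at the perimacula], a share of 23.8% each beside 19% and 16.2% of all genes. Without the covariate the counts were 3 at the fovea and 0 at the perimacula. FGF9 had 71.1, 69.3, 59.4 and 59.1 CPM at the fovea and 25.1, 22.1, 17.1 and 34.7 CPM at the perimacula (log2 fold change 1.38, SE 0.21, edgeR adjusted p = 0.000488).

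Among synaptic genes, receptor genes were called in both directions. For glutamate receptor genes the shares were 32% at the fovea and 16% at the perimacula, beside 19% and 16.2% of all genes. Of 25 glutamate receptor genes, 8 were higher at the fovea and 4 at the perimacula [4, 5, 4 and 7 at the fovea, 2, 3, 1 and 1 at the perimacula], and 7 and 6 with upper quartile normalization; the NMDA receptor subunits GRIN1 and GRIN2A rose by 1.23 and 1.43 on the log2 scale, GRIN1 with 268 ± 9.65 CPM at the fovea and 115 ± 23.8 at the perimacula (edgeR adjusted p = 0.000667 and 0.00106). Of 22 GABA and glycine receptor genes 5 were higher at each location [1, 4, 3 and 4 at the fovea, 4, 4, 2 and 3 at the perimacula], a share of 22.7% each beside 19% and 16.2% of all genes. With the eye as a replicate block the counts were 4 and 3, without the covariate 3 and 1, and without the perimacular library of RM04 OS 5 and 3. GABBR1, of the metabotropic GABA receptor, was at 1.17, edgeR adjusted p = 0.000472, and GABRR1, of the rho receptors of bipolar cells, at -0.55, edgeR adjusted p = 0.000645. Of 23 genes of the photoreceptor synapse and its ribbon, 11 were higher at the perimacula and 2 at the fovea (median -0.25) [1, 1, 1 and 2 at the fovea]. CABP4, which tunes the photoreceptor calcium channel, had 97.2 ± 18.2 CPM at the fovea and 239.96 ± 48.5 at the perimacula (-1.31, edgeR adjusted p = 2.39e-05, log2), and BSN, the active zone protein bassoon, had 117 ± 12.8 CPM at the fovea and 69.3 ± 8.33 at the perimacula (0.76, edgeR adjusted p = 4.98e-05, log2). The calcium-binding proteins parvalbumin (PVALB) and recoverin (RCVRN) went opposite ways, at 0.82, edgeR adjusted p = 0.002, and -0.93, edgeR adjusted p = 0.000262. Of 12 gap junction genes 2 were higher at the fovea and 4 at the perimacula [1, 2, 1 and 1 at the fovea], shares of 16.7% and 33.3% beside 19% and 16.2% of all genes. GJD2, the neuronal connexin 36, had 33.1 ± 2.38 CPM at the fovea and 49 ± 5.94 at the perimacula (-0.56, edgeR adjusted p = 0.000257, log2).

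**Figure D5:**
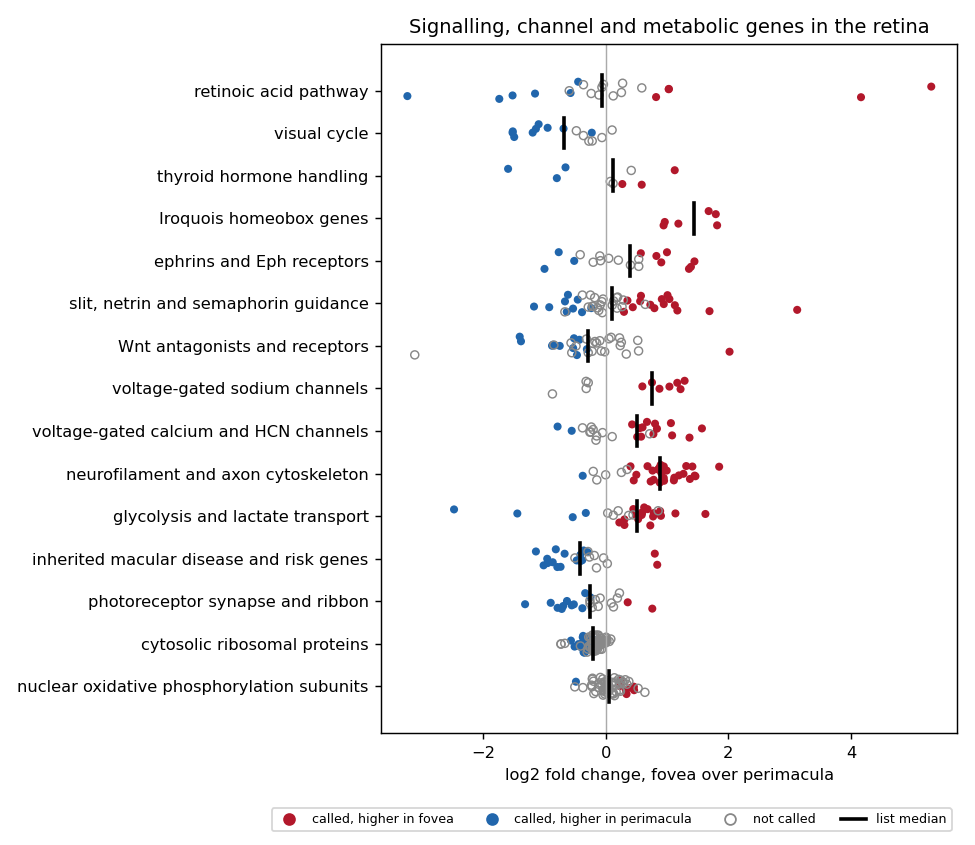
Log2 fold change of fovea over perimacula (horizontal axis) for each tested gene of 15 further lists (vertical axis), with filled points where called, open points where not and a black bar at the median of the list. Iroquois, axon cytoskeleton and glycolysis genes lie mostly to the right of 0, visual cycle and macular disease genes mostly to the left, and the retinoic acid list reaches to both ends.

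Glycolysis supplies much of the energy of photoreceptors. Of 28 genes of glycolysis and lactate transport, 18 were higher at the fovea and 4 at the perimacula (median 0.51) [2, 4, 4 and 4 at the perimacula], with a summed level of 28377, 29612, 28572 and 29618 CPM at the fovea and 20813, 19951, 21348 and 23177 CPM at the perimacula. Several of these genes have entries of the same symbol that could share reads. ALDOC (ENSMMUG00000020322), the neural aldolase, had 2341, 2645, 2653 and 2855 CPM at the fovea and 1272, 1289, 1401 and 1728 CPM at the perimacula (log2 fold change 0.89, SE 0.09, edgeR adjusted p = 6.97e-05), without overlap. SLC16A3 (ENSMMUG00000010121), a lactate exporter, had 30.3, 47.8, 54.4 and 54.7 CPM at the fovea and 8.92, 15.5, 15.5 and 21.4 CPM at the perimacula (log2 fold change 1.62, SE 0.22, edgeR adjusted p = 0.000336). PFKFB3 and PFKFB2, enzymes that set the pace of phosphofructokinase, moved apart: PFKFB3 had 39.7 ± 7.07 CPM at the fovea and 18.4 ± 6.61 at the perimacula (1.14, edgeR adjusted p = 0.0073, log2) and PFKFB2 (ENSMMUG00000022170) had 55.5, 61.6, 68.5 and 68.9 CPM at the fovea and 182, 159, 186 and 161 CPM at the perimacula (log2 fold change -1.44, SE 0.08, edgeR adjusted p = 5.44e-06). PFKFB3 was at 0.98 (edgeR adjusted p = 0.0615) without RM04 OD. PDK4 (ENSMMUG00000021389), a kinase that shuts off pyruvate dehydrogenase, had 0.915, 0.968, 2.49 and 3.81 CPM at the fovea and 9.2, 8.3, 16.7 and 8.93 CPM at the perimacula (log2 fold change -2.47, SE 0.38, edgeR adjusted p = 0.000633), and HK2, the hexokinase of photoreceptors, had 526 ± 29.3 CPM at the fovea and 762 ± 71.4 at the perimacula (-0.54, edgeR adjusted p = 0.0112, log2), with -0.53 (edgeR adjusted p = 0.0663) without RM03 OD. Of 62 nuclear genes of oxidative phosphorylation, 8 were higher at the fovea and 1 at the perimacula [1, 5, 1 and 5 at the fovea], shares of 12.9% and 1.61% below the 19% and 16.2% of all genes. This split depended on the scaling, with 4 and 7 under upper quartile normalization, 6 and 6 with library totals and 8 and 7 with the 8 libraries alone, and the median of 0.05 turned negative (-0.04) under upper quartile normalization. Of 70 cytosolic ribosomal protein genes, whose processed copies can share reads, 18 were higher at the perimacula and 0 at the fovea (median -0.20) [12, 12, 11 and 15 at the perimacula]. The count at the perimacula was 31 under upper quartile normalization, 30 with the 8 libraries alone, 28 with library totals and 8 without the covariate. Of 18 carbonic anhydrase and sodium pump genes 6 were higher at the fovea and 5 at the perimacula, shares of 33.3% and 27.8% beside 19% and 16.2% of all genes. The pump subunit ATP1B1 (ENSMMUG00000021078) had 766 ± 26.6 CPM at the fovea and 385 ± 104 at the perimacula (0.99, edgeR adjusted p = 0.000454, log2), while ATP1B2 had 975 ± 33.8 CPM at the fovea and 1616 ± 166 at the perimacula (-0.72, edgeR adjusted p = 0.000119, log2).

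Vessels are absent from the centre of the fovea. Of 27 genes of angiogenesis and hypoxia 9 were higher at the fovea and 5 at the perimacula, shares of 33.3% and 18.5% beside 19% and 16.2% of all genes. ADM (ENSMMUG00000016387), the vasodilator peptide adrenomedullin, whose receptors use RAMP proteins, had 13.4, 16, 17 and 23.6 CPM at the fovea and 3.64, 5.33, 6.49 and 10.1 CPM at the perimacula (log2 fold change 1.49, SE 0.21, edgeR adjusted p = 0.000338), and EGLN3 (ENSMMUG00000000040), an oxygen-sensing prolyl hydroxylase, had 64.8, 68.3, 64.8 and 69.7 CPM at the fovea and 21.2, 20.9, 19.4 and 40.3 CPM at the perimacula (log2 fold change 1.42, SE 0.21, edgeR adjusted p = 0.000442); the perimacular library of RM04 OS was the highest of its group for both. VEGFA (ENSMMUG00000004577) had 269.9, 191, 191 and 199 CPM at the fovea and 178, 133, 176 and 259 CPM at the perimacula, overlapping and not called (log2 fold change 0.20, SE 0.18, edgeR adjusted p = 0.422). SERPINF1, the antiangiogenic factor PEDF, was not called either (log2 fold change -0.41, SE 0.17, edgeR adjusted p = 0.085), though it was without RM04 OS (-0.52 (edgeR adjusted p = 0.0411)) and with upper quartile normalization (-0.51 (edgeR adjusted p = 0.0446)). Of 17 genes of the integrated stress response 5 were higher at the fovea and 4 at the perimacula [2, 1, 1 and 4 at the fovea], shares of 29.4% and 23.5% beside 19% and 16.2% of all genes. The count at the fovea was 2 under upper quartile normalization, 3 with the 8 libraries alone and 1 without the covariate. Beside CHAC1, the stress factor DDIT3 had 13.1 ± 0.777 CPM at the fovea and 17.5 ± 2.27 at the perimacula (-0.42, edgeR adjusted p = 0.00727, log2), opposite in direction. Of 20 immediate early genes, which respond to handling and activity, 2 were higher at the fovea and 0 at the perimacula, shares of 10% and 0% below the 19% and 16.2% of all genes. The 2 were MYC (1.01, edgeR adjusted p = 0.00211, log2) and KLF6 (0.69, edgeR adjusted p = 0.000422, log2).

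Of 24 genes of inherited macular disease and macular risk, 15 were higher at the perimacula and 2 at the fovea (median -0.41) [10, 15, 9 and 14 at the perimacula], the 2 being the cone channel genes CNGA3 and CNGB3. Most of the 15 are photoreceptor genes that also stand in the lists above. PROM1 (ENSMMUG00000008164), of outer segment discs, had 377 ± 9.06 CPM at the fovea and 762 ± 84.7 at the perimacula (log2 fold change -1.01, SE 0.10, edgeR adjusted p = 4.86e-05), and GUCY2D, a guanylate cyclase of photoreceptors, had 169.8 ± 8.75 CPM at the fovea and 327 ± 42.7 at the perimacula (-0.94, edgeR adjusted p = 5.19e-05, log2). The yellow macular pigment consists of carotenoids that accumulate at the fovea. BCO2 (ENSMMUG00000015249), which cleaves carotenoids, had 33.7, 37, 21.1 and 19.6 CPM at the fovea and 128, 118, 66.4 and 47.6 CPM at the perimacula (log2 fold change -1.65, SE 0.11, edgeR adjusted p = 8.41e-06), with higher perimacular levels in RM03 than in RM04. The carotenoid-binding proteins STARD3 and GSTP1 were not called (-0.10, edgeR adjusted p = 0.311, and 0.24, edgeR adjusted p = 0.338, log2), and STARD3 had 31.6 ± 1.13 CPM at the fovea and 33.9 ± 2.8 at the perimacula. SCARB2, a lysosomal receptor of the family of the carotenoid receptor, was at 0.48, edgeR adjusted p = 0.00932, with 0.39 (edgeR adjusted p = 0.0862) without RM03 OD. The fatty acid desaturase FADS1 had 103 ± 9.54 CPM at the fovea and 61 ± 14.5 at the perimacula (0.77, edgeR adjusted p = 0.00179, log2), and ELOVL4, which makes very long chain fatty acids in photoreceptors, had 129.97 ± 12.5 CPM at the fovea and 229 ± 27.4 at the perimacula (-0.81, edgeR adjusted p = 0.000128, log2). Of 20 genes of carotenoid and lipid handling in all, 6 were higher at the fovea and 5 at the perimacula, shares of 30% and 25% beside 19% and 16.2% of all genes.

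The last comparison asked whether the difference between fovea and perimacula was itself different in the 2 animals. Of 15059 genes tested for an interaction of animal and location in the 8 libraries, 0 were called by edgeR, and 542 had an unadjusted p under 0.05; DESeq2 called 16. The lowest adjusted p was 0.196, shared by PMP2, with an interaction (RM04 minus RM03, log2) of -3.49, and GPR4, a proton-sensing receptor, with one of 2.43. C3P1 followed, with an interaction of 2.09 (edgeR adjusted p = 0.296). With 2 eyes per animal, a gene that misses the threshold is not shown to differ alike in both.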

How the data were processed

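Neural retina from the fovea and the perimacula of 4 Rhesus macaque eyes was analysed. The authors quantified reads with Salmon 0.13 against Mmul_8.0.1, imported gene-level values through tximport and deposited 136 lane tables of expected counts per gene, scaled for transcript length but not divided by depth. The 5 lanes of each library were summed and rounded here. Each table held 19432 entries, of which 10 repeat an identifier, and 912 of 971 list symbols matched an entry.

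CPM are TMM-normalized. Genes were compared by the quasi-likelihood test of edgeR 4.0.16 (TMM, filterByExpr at a minimum count of 10) in R 4.3.3 with limma 3.58.1, with animal as covariate and fovea, perimacula and periphery fitted together. SE is the log2 fold change divided by the square root of F. Adjusted p are Benjamini-Hochberg over all genes tested, and log2 fold changes above 0 stand for higher foveal levels. The test was tried on simulated counts. Alternatives were DESeq2 1.42.0, RLE, upper quartile or no normalization, other filters, eye as a replicate block, no covariate, other sets of libraries, each flow cell alone and each eye left out; the fit without the perimacular library of RM04 OS was chosen after seeing the data. The other steps used Python 3.11.15, numpy 2.4.6, pandas 2.3.3, scipy 1.17.1 and matplotlib 3.10.9.

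The foveal and perimacular libraries of the same eye deviated together from their location means (correlation 0.504 to 0.863, mean 0.748). Pairs from fellow eyes of an animal had correlations of 0.134 to 0.8, with a mean of 0.476. The ranges overlapped, and whether the eye or the animal set these values was not tested. Libraries of different eyes at a location differed by 4.32 to 36.9 times the variance of counting alone, and none was a repeat of another. Intervals from counting alone are not given, since the spread between eyes was larger.

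Genes named are the 10 largest increases and 10 largest decreases among called genes, given 3 or more mean log2 CPM and 1 direction in 4 of 4 eyes, up to 4 called genes in each direction of each list given 1 or more mean log2 CPM, and a set of genes named in advance for their role in the retina. Exceptions are stated where they occur, and a few genes that meet the rule are not reported here. The members and lists were chosen with earlier results of these data known. Symbols came from the deposited tables; for genes with several entries of a symbol, the entry used is uncertain. No coordinates are given, since the reference table at hand is of another build.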

Additional observations from a re-analysis of the deposited data

Results flagged for a closer look

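A library was set apart where its gap to the nearest of the 4 libraries of its location, divided by their whole range, passed Dixon's critical value at the 95% level. Of 338 groups tested, the 169 named genes at 2 locations, 22 (6.51%) passed. About 1 in 20 would pass among independent groups of normally distributed values. The genes come from the same libraries and are not independent, so that this share cannot be set against chance. The perimacular library of RM04 OS accounted for 11 of them. It was the highest of its group for ATP1B1 at 538 CPM against 309 to 348 in the other 3, CYP26A1 at 4.21 CPM against 0.204 to 0.673 in the other 3, EGLN3 at 40.3 CPM against 19.4 to 21.2 in the other 3, EPHA4 at 91.2 CPM against 45.8 to 50.6 in the other 3, FADS1 at 82.6 CPM against 51.1 to 55.3 in the other 3, GRIN2A at 12.1 CPM against 5.45 to 6.57 in the other 3, KCNA2 at 478 CPM against 251 to 269 in the other 3, SCN8A at 86.8 CPM against 42.9 to 48 in the other 3 and ZFHX3 at 71.8 CPM against 43.2 to 44.7 in the other 3. It was the lowest for RCVRN at 1475 CPM against 2310.0 to 2408 and RDH8 at 81.8 CPM against 127 to 134. In each case the library lay on the side of the fovea. Why was not tested.

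Among the other perimacular libraries, CABP4 stood apart in RM04 OD at 312 CPM against 209 to 224, CYP26B1 stood apart in RM04 OD at 3.3 CPM against 0.569 to 0.944, PDK4 stood apart in RM04 OD at 16.7 CPM against 8.3 to 9.2 and PFKFB3 stood apart in RM03 OS at 28.3 CPM against 14.8 to 15.6. At the fovea, GLUL stood apart in RM04 OD, the lowest of its group, at 623 CPM against 662 to 668. IRX3 did so in RM03 OD, the lowest, at 6.92 CPM against 9.42 to 9.66. NR2F1 did so in RM03 OD, the lowest, at 7.82 CPM against 9.98 to 10.2. PDE6B did so in RM03 OS, the highest, at 285 CPM against 245 to 248. RARB did so in RM04 OD, the highest, at 13.6 CPM against 12.2 to 12.4. SST did so in RM04 OD, the highest, at 0.105 CPM against 0.0175 to 0.0218. VEGFA did so in RM03 OD, the highest, at 269.9 CPM against 191 to 199.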

How the results depend on the processing

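With the eye as a replicate block, which uses the pairing of both locations within an eye, 4877 genes were called, 2707 higher at the fovea and 2170 at the perimacula. Beside the calls given with their blocked value in the report, the block changed no call of a named gene. The count of calls stayed within 1.5 times the 5416 of the report with RLE, upper quartile or no normalization, other filters, DESeq2, either flow cell alone, the 8 libraries alone, the nasal libraries included and no covariate. Without the covariate, the genes higher at the perimacula fell to 1528. With each eye left out in turn, the calls ranged from 3225 to 4800, those higher at the fovea from 1632 to 2583 and those higher at the perimacula from 1593 to 2332; fewer libraries enter these fits. Of the 5416 calls, 4409 were kept in the same direction without RM04 OS, 4910 without its perimacular library alone and 3181 without RM03 OD. In these and the other settings run, 0 of the 5416 genes were called in the opposite direction. For the interaction of animal and location, 0 genes were called under RLE, library totals and no filter, and 16 with DESeq2.

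Of the 169 named genes, 134 kept their direction and their side of the threshold in every setting run. ALDH1A3, not called, turned positive with lanes of flow cell HLKMNBBXX alone (log2 fold change 0.056) and without the perimacular library of RM04 OS (0.045), and ranged from -0.20 to 0.080 with each eye left out, positive without RM04 OD (0.069) or RM04 OS; the cause was not tested. Depth limits the CYP26C1, CYP26B1 and SST values, which rest on few counts at one location. Gene symbols follow orthology, so that near-identical copies cannot be told apart.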

Other observations

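Several genes below the level set for the largest differences had steep contrasts of their own, and they are named here after their values were seen. SST, the neuropeptide somatostatin of some amacrine cells, had 0.0218, 0.0186, 0.105 and 0.0175 CPM at the fovea and 1.19, 3.33, 0.805 and 0.284 CPM at the perimacula (log2 fold change -5.11, SE 1.32, edgeR adjusted p = 0.0104), and 2.85, 0.195, 7.28 and 6.25 CPM at the periphery. The foveal libraries were at a few counts, so that the size of this difference is imprecise, and without RM03 OD SST was at -4.88 (edgeR adjusted p = 0.0779) and was not called. Its log2 fold change was -3.93 (edgeR adjusted p = 0.0103) without RM03 OS, -6.36 (edgeR adjusted p = 0.0388) without RM04 OD and -5.85 (edgeR adjusted p = 0.00367) without the perimacular library of RM04 OS. TAC3, a tachykinin gene, had 0.436, 0.279, 0.314 and 0.28 CPM at the fovea and 2.16, 2.56, 1.49 and 1.16 CPM at the perimacula (log2 fold change -2.44, SE 0.27, edgeR adjusted p = 8.77e-05), and the gap junction gene GJC3, of glia, had 0.699 ± 0.131 CPM at the fovea and 3.18 ± 0.913 at the perimacula (-2.17, edgeR adjusted p = 5.54e-05, log2). In both cases every foveal library lay below every perimacular one.

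Among moderately expressed genes, SYT16, a synaptotagmin family member, had 18.8, 15.9, 2.04 and 2.69 CPM at the fovea and 1.26, 0.722, 1.38 and 1.1 CPM at the perimacula (log2 fold change 2.78, SE 0.62, edgeR adjusted p = 0.00464). It was not called without RM03 OD (2.19 (edgeR adjusted p = 0.0532)) or without RM03 OS (2.10 (edgeR adjusted p = 0.0502)), and was at 3.42 (edgeR adjusted p = 0.00948) without RM04 OD. ENO3, the enolase known from muscle, had 13.5, 14.1, 10.7 and 9.91 CPM at the fovea and 2.23, 2.07, 2.12 and 2.94 CPM at the perimacula (log2 fold change 2.36, SE 0.18, edgeR adjusted p = 1.24e-05). CDKN2C, an inhibitor of cyclin-dependent kinases, had 3.31, 3.44, 2.2 and 2.55 CPM at the fovea and 12.2, 13.4, 16.9 and 10.7 CPM at the perimacula (log2 fold change -2.24, SE 0.18, edgeR adjusted p = 1.68e-05). SLC26A7, an anion exchanger, had 1.05 ± 0.187 CPM at the fovea and 6.7 ± 1.63 at the perimacula (-2.69, edgeR adjusted p = 8.67e-05, log2), GNRHR, the receptor of gonadotropin-releasing hormone, had 1.18 ± 0.487 CPM at the fovea and 6.18 ± 3.91 at the perimacula (-2.25, edgeR adjusted p = 2.72e-05, log2), and FMOD, a collagen-binding proteoglycan, had 1.13 ± 0.466 CPM at the fovea and 6.1 ± 2.39 at the perimacula (-2.45, edgeR adjusted p = 8.67e-05, log2).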
